A study of Mus musculus with 6 samples.

Results

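Collagens are the triple-helical proteins of the extracellular matrix, and 43 of the 37979 genes in the deposited table carry a symbol made of Col, a number, a and a number, which was the rule for choosing them. Fibrillar collagens assemble into the cross-banded fibrils that carry tension. Type IV collagen and the multiplexins lie in basement membranes, which in muscle wrap each fiber and capillary, and the remaining types coat fibrils, form microfibrils, anchor membranes or span the cell membrane. In muscle most collagen transcripts come from fibroblast-like cells of the connective tissue, and collagen makes up much of the scar that replaces fibers in fibrosis. By class, 11 of the genes are fibrillar, 8 are basement membrane and 24 are minor collagens.

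The gastrocnemius (GAS) muscles of 3 Kvβ2 KO and 3 WT male mice, 20 weeks of age and untreated, were sequenced with 1 library per mouse. Kvβ2 is a cytoplasmic subunit of voltage-gated potassium channels encoded by *Kcnab2*. The KO mice lack it from the germline and in all tissues, not in muscle alone, the WT mice were littermates, and the background strain is not given in the sources used here. The study stained another hindlimb muscle of these genotypes for fibrous tissue, and the comparison here asks whether collagen transcripts of the GAS muscles differed between the genotypes. Library values are given in the order of replicates 1, 7 and 8 throughout. *Kcnab2* was at 0.233, 0.1 and 0.110 FPKM in WT and 0, 0.0151 and 0 FPKM in KO muscle. All 9 markers of skeletal muscle fibers were detected, with summed levels of 41740 to 65720 FPKM per library, whereas *Acan* and *Sp7* of the cartilage and bone list were at 0 in all 6 libraries. FPKM count fragments relative to transcript length in kilobases and to the depth of the library. The estimated depth was 13960000 to 18150000 fragments in the KO and 19240000 to 20140000 in the WT libraries, so that 1 fragment on a transcript of 5 kilobases is worth 0.00993 to 0.0143 FPKM. Since whole muscle was sequenced, fewer cells of a type and less RNA per cell cannot be told apart. P-values measure the spread between these mice only.

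The DNA before the start of 3 collagen genes is shown because their levels across the libraries differed in kind, as described below. *Col11a1* and *Col24a1*, 2 fibrillar collagens of low level, shared one order of the libraries in both genotypes, whereas the abundant *Col3a1* did not. The stretches are the 250 bases upstream of the start annotated by RefSeq on GRCm38 and do not overlap an annotated exon. Capitals mark the letters TATAAA of a TATA box, the letters CCAAT of a CAAT box and the letters GGGCGG of a GC box on either strand, and none of these overlap in the stretches shown. *Col11a1* (chr3:114030290-114030539, plus strand, 62.4% GC) holds 1 CCAAT and 2 GGGCGG. *Col24a1* (chr3:145292222-145292471, plus strand, 58.0% GC) holds 0 of these motifs. *Col3a1* (chr1:45311288-45311537, plus strand, 35.2% GC) holds 1 TATAAA.
Col11a1: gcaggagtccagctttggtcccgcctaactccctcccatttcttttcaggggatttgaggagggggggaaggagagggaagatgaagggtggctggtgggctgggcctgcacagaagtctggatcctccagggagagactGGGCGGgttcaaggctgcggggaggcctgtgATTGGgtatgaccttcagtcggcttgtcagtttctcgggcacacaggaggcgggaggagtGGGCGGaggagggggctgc
Col24a1: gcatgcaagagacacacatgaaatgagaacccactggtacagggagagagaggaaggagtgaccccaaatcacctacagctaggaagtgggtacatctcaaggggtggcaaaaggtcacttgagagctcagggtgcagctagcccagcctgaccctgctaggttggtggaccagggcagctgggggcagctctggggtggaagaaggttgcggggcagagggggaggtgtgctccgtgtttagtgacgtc
Col3a1: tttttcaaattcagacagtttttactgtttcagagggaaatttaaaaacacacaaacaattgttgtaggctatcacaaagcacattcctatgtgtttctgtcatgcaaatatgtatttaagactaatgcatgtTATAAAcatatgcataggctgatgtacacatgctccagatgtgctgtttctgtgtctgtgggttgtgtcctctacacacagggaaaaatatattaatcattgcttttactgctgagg
Over all 32851 RefSeq windows of this length, TATAAA was found in 12.4%, CCAAT in 33.9% and GGGCGG in 32.7%. Among the 25 windows of collagen genes that passed the filter on low values, 2 held TATAAA (*Col3a1* and *Col11a2*), 10 held CCAAT and 15 held GGGCGG. A match is a run of letters and not a site of binding.

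Of the 43 collagens, 28 averaged 0.5 FPKM or more and were tested, 9 of the fibrillar, 6 of the basement membrane and 13 of the minor class. In limma with Benjamini-Hochberg adjustment over all 12334 genes tested, 0 collagens were called at an adjusted p under 0.05, against 0.324% of all genes (0.251% called higher in KO and 0.073% called lower). With no adjustment, p was under 0.05 for 7 collagens that were higher in the KO mice (15.3% of all genes) and for 0 that were lower (10.9% of all genes). With array weights, which give each library a weight by its spread, limma called 5 collagens (*Col4a2*, *Col6a1*, *Col6a2*, *Col16a1* and *Col20a1*) and 25.5% of all genes. Leaving out 1 library called 0 collagens, and the count at an unadjusted p under 0.05 was 3 without KO replicate 7, 4 without WT replicate 7, 4 without WT replicate 8 and 11 without KO replicate 8.

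The log2 fold change of KO against WT, on the scale of log2(FPKM + 0.1), was above 0 for 24 of the 28 tested collagens and for 51.0% of all genes. Its median was 0.52 over the tested collagens and 0.01 over all genes. By class the median was 0.51 for fibrillar collagens (8 above 0 and 1 below), 0.28 for basement membrane collagens (4 above 0 and 2 below) and 0.55 for minor collagens (12 above 0 and 1 below). In 5 collagens every KO library lay above every WT library, which held for 18.3% of all genes, and in 0 every KO library lay below, which held for 16.2%. Most tested collagens thus had higher values in the KO mice, by up to 1.46 on the log2 scale, and none passed the test over all genes.

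Fold changes across all genes moved with the GC content of the transcripts, and the collagens had a higher median GC content than all genes. The tested collagens had a median GC content of 54.5%, from 45.4% to 64.1%, against 50.1% for all genes tested with a known GC content. Among all genes of 44% to 48% GC the median log2 fold change was -0.17, and the 5 collagens there (*Col1a2*, *Col3a1*, *Col5a2*, *Col8a1* and *Col11a1*) had a median of 0.26. From 56% to 60% GC the median was 0.51 for all genes and 0.59 for 6 collagens, and at 60% or more it was 0.68 for all genes and 0.66 for 6 collagens. From 48% to 52% GC the medians were -0.007 for all genes and 0.11 for 5 collagens, and from 52% to 56% GC they were 0.24 for all genes and 0.19 for 6 collagens. At 56% GC or more the median of the collagens thus lay near that of all genes, from 52% to 56% it lay slightly below, and in the bands from 44% to 52% it lay above.

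**Figure D1:**
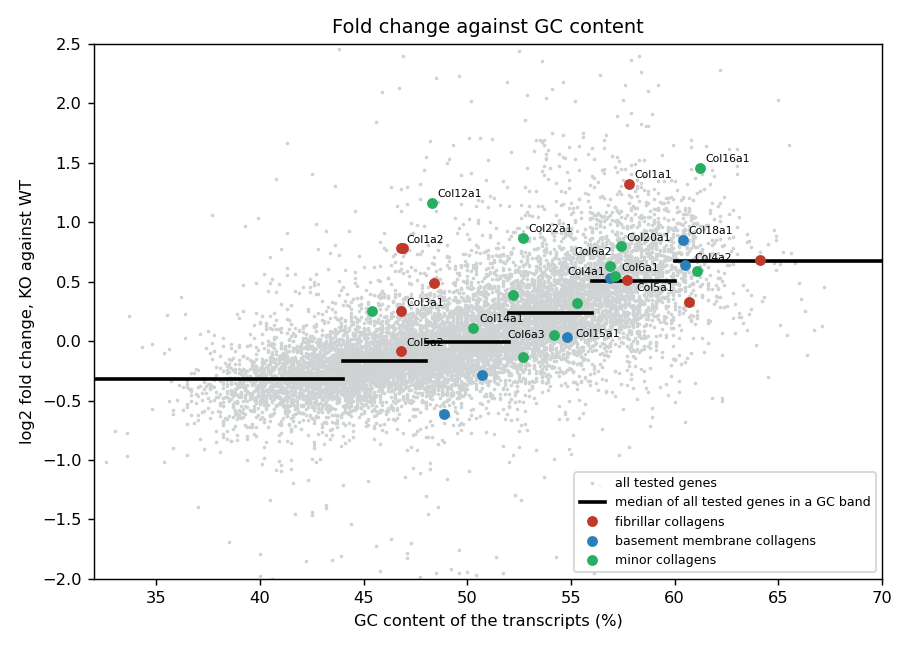
GC content of the transcripts (x axis, %) against the log2 fold change of KO against WT (y axis) for all tested genes (grey) and the tested collagens by class, with black lines at the median of all genes in each GC band; genes outside the axes are not drawn. Most collagens at 56% GC or more sit around the lines, whereas *Col1a1* and *Col16a1* there and *Col1a2*, *Col12a1* and *Col22a1* at lower GC content sit above them.

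After each library's trend on GC content was removed, the median log2 fold change was 0.096 over all tested collagens, 0.38 for fibrillar, -0.14 for basement membrane and 0.18 for minor collagens. Then 18 collagens were above 0 and 10 below, and *Col22a1* was the 1 collagen at an unadjusted p under 0.05, which 5.33% of all genes reached on the higher side. Again 0 collagens were called after adjustment, against 0.117% of all genes. The trend itself ran with genotype, since the median log2 fold change of all genes rose from -0.32 under 44% GC to 0.68 at 60% or more. Its removal thus also takes out any genotype difference that follows GC content. A technical trend and such a difference cannot be told apart here. Values with this correction are given beside the fold changes of the collagens below.

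**Figure D2:**
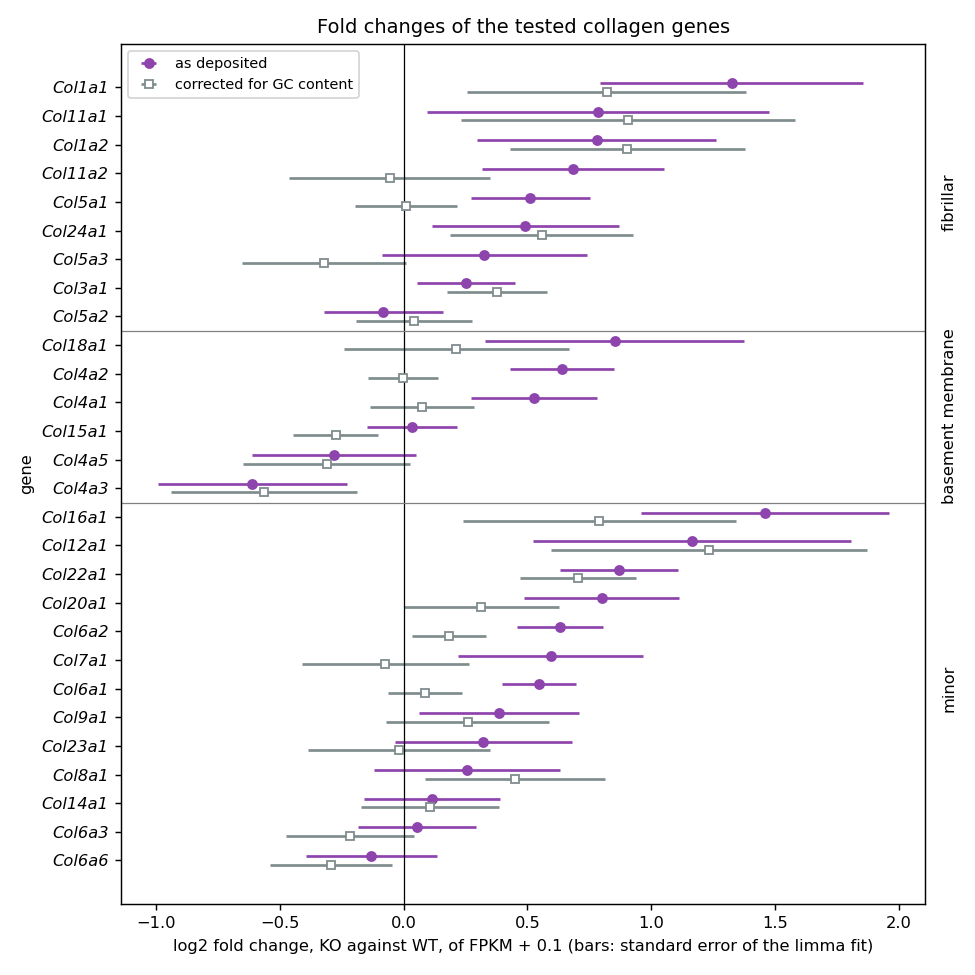
Log2 fold change of KO against WT with its standard error (x axis, log2 of FPKM + 0.1) for the 28 tested collagens (y axis) by class, as deposited (filled) and with the correction for GC content (open). The correction moves *Col4a2* and *Col5a1* to about 0 and leaves *Col1a2*, *Col12a1* and *Col22a1* above it.

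Of the fibrillar collagens, type I is the main fibril of tendon, bone and muscle connective tissue and is built from chains encoded by *Col1a1* and *Col1a2*. *Col1a2* (ENSMUSG00000029661, chromosome 6, 4504814 to 4541544 of GRCm38, plus strand) was the most abundant collagen transcript, at 48.7, 27.9 and 21.0 FPKM in WT and 96.7, 56.8 and 26.5 FPKM in KO muscle. Replicate 1 was the highest and replicate 8 the lowest in each genotype, KO replicate 8 lay under 2 of the WT libraries, and the groups overlapped. The log2 fold change was 0.78 (standard error of the limma fit, SE, 0.48, adjusted p = 0.335), and 0.90 with the correction for GC content. *Col1a1* (ENSMUSG00000001506, chromosome 11, 94936224 to 94953042, plus strand) was at 9.80, 5.08 and 4.07 FPKM in WT and 25.9, 19.7 and 6.45 FPKM in KO muscle. Again replicate 1 was the highest and replicate 8 the lowest of each genotype, and KO replicate 8 lay under WT replicate 1. Its log2 fold change of 1.33 (SE 0.53, adjusted p = 0.173) had the largest size among the fibrillar collagens and was 0.82 with the correction for GC content.

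*Col3a1* (ENSMUSG00000026043, chromosome 1, 45311538 to 45349706, plus strand), which forms the thin reticular fibers, was far steadier than the type I chains. It was at 26.8, 21.7 and 24.7 FPKM in WT and 33.0, 34.5 and 21.3 FPKM in KO muscle. KO replicates 1 and 7 lay above every WT library and KO replicate 8 lay below every one, so the groups overlapped. The log2 fold change was 0.25 (SE 0.20, adjusted p = 0.440), and 0.38 with the correction. *Col1a2* and *Col3a1* together made up 39.4% of the FPKM summed over all 43 collagens and 6 libraries, and with *Col1a1*, *Col6a1*, *Col6a2* and *Col4a1* they made up 65.4%.

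Type V collagen starts fibril assembly inside the type I fibril. Its chain gene *Col5a1* (ENSMUSG00000026837, chromosome 2, 27886425 to 28039514, plus strand) was at 2.07, 2.36 and 2.67 FPKM in WT and 3.42, 4.70 and 2.43 FPKM in KO muscle. KO replicate 8 lay within the WT range and the others above it, and the log2 fold change was 0.51 (SE 0.24, adjusted p = 0.222), or 0.009 with the correction for GC content. *Col5a2* (ENSMUSG00000026042, chromosome 1, 45374321 to 45503282, minus strand), 24.6 kb from *Col3a1*, was at 10.1, 5.996 and 6.78 FPKM in WT and 8.58, 7.45 and 5.41 FPKM in KO muscle. WT replicate 1 was the highest and KO replicate 8 the lowest of all 6 libraries, and the log2 fold change was -0.083 (SE 0.24, adjusted p = 0.850) or 0.041 with the correction. The other tested fibrillar collagens were *Col11a1*, *Col11a2*, *Col24a1* and *Col5a3*, with log2 fold changes of 0.79, 0.68, 0.49 and 0.33, adjusted p from 0.273 to 0.641, and overlapping groups in each. With the correction for GC content the values were 0.91 for *Col11a1*, -0.056 for *Col11a2*, 0.56 for *Col24a1* and -0.32 for *Col5a3*, so that the sign turned for *Col11a2* and *Col5a3*.

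Basement membrane collagens are led by the *Col4a1* and *Col4a2* chains, which assemble into the network under every endothelium and around every muscle fiber. The genes lie head to head on chromosome 8 and share 22 bases at their starts. *Col4a2* (ENSMUSG00000031503, 11312805 to 11449287, plus strand) was at 5.45, 6.65 and 8.23 FPKM in WT and 9.27, 13.6 and 9.07 FPKM in KO muscle. Every KO library lay above every WT library, with KO replicate 7 the highest, and the log2 fold change was 0.64 (SE 0.21, adjusted p = 0.124) but -0.003 with the correction for GC content. *Col4a1* (ENSMUSG00000031502, 11198423 to 11312826, minus strand) was at 7.66, 8.10 and 9.60 FPKM in WT and 9.49, 18.6 and 10.2 FPKM in KO muscle. KO replicate 7 stood far above the other libraries and KO replicate 1 fell inside the WT range, and the log2 fold change was 0.53 (SE 0.26, adjusted p = 0.231) or 0.074 with the correction.

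The multiplexins are basement membrane collagens with an interrupted helix. *Col18a1* (ENSMUSG00000001435, chromosome 10, 77052178 to 77166548, minus strand), the source of endostatin, was at 0.469, 0.525 and 1.25 FPKM in WT and 0.777, 2.79 and 1.011 FPKM in KO muscle. KO replicate 7 was again the highest and WT replicate 8 lay above the other KO libraries. Its log2 fold change of 0.85 (SE 0.52, adjusted p = 0.331) was the largest of the class and was 0.21 with the correction. *Col15a1* (ENSMUSG00000028339, chromosome 4, 47208161 to 47313167, plus strand), which stabilises muscle fibers and capillaries, was at 8.51, 6.92 and 9.44 FPKM in WT and 6.83, 10.2 and 8.57 FPKM in KO muscle. The ranges nearly coincided, and the log2 fold change was 0.033 (SE 0.18, adjusted p = 0.925) or -0.28 with the correction. Of the chains that replace *Col4a1* and *Col4a2* in specialised membranes, *Col4a3* and *Col4a5* had log2 fold changes of -0.61 and -0.28 (adjusted p = 0.339 and 0.615), or -0.56 and -0.31 with the correction, and 5.65% of the exonic bases of *Col4a3* are shared with an overlapping gene.

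Type VI collagen forms the microfibrils that tie the basement membrane of muscle fibers to the surrounding matrix, and mutations of its chains cause congenital muscle disease in humans. *Col6a1* (ENSMUSG00000001119, chromosome 10, 76708792 to 76726168, minus strand) was at 12.3, 11.3 and 12.1 FPKM in WT and 17.9, 20.6 and 14.2 FPKM in KO muscle. Every KO library lay above the narrow WT range, and the log2 fold change was 0.55 (SE 0.15, adjusted p = 0.0950) or 0.085 with the correction for GC content. *Col6a2* (ENSMUSG00000020241, chromosome 10, 76595762 to 76623630, minus strand), 85.2 kb away, was at 8.32, 8.12 and 9.58 FPKM in WT and 13.0, 17.1 and 11.0 FPKM in KO muscle. The order of the KO libraries was that of *Col6a1* and the groups did not overlap, and the log2 fold change was 0.63 (SE 0.17, adjusted p = 0.0958) or 0.18 with the correction. *Col6a3* (ENSMUSG00000048126, chromosome 1, 90765923 to 90843971, minus strand), whose product completes the type VI trimer, was at 10.8, 7.88 and 6.57 FPKM in WT and 8.82, 10.9 and 6.54 FPKM in KO muscle. The groups overlapped over almost their whole range, and the log2 fold change was 0.054 (SE 0.24, adjusted p = 0.904) or -0.22 with the correction.

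**Figure D3:**
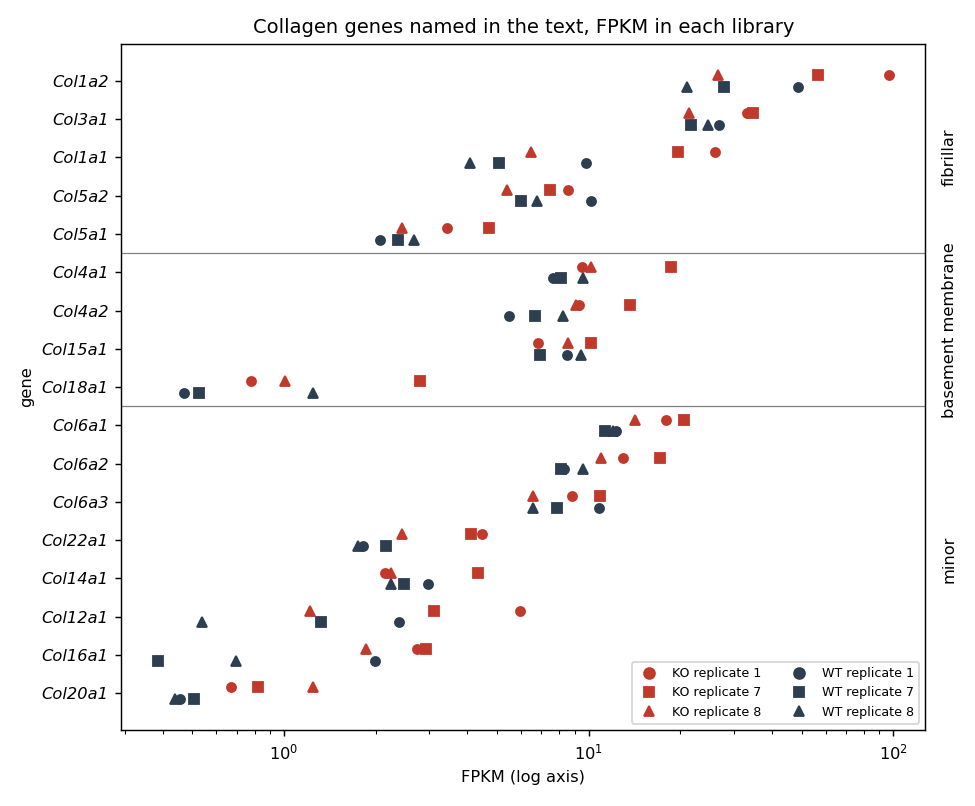
FPKM in each library (x axis, log scale) for the collagen genes named with library values (y axis), ordered by class and level, with KO in red and WT in dark blue and a marker shape for each replicate number. KO libraries sit to the right of all WT libraries for *Col4a2*, *Col6a1*, *Col6a2*, *Col22a1* and *Col20a1*.

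Several minor collagens bind the surface of fibrils and are known as FACIT collagens. *Col22a1* (ENSMUSG00000079022, chromosome 15, 71795795 to 72034227, minus strand) is expressed at tissue junctions, the myotendinous junction among them. It was at 1.82, 2.16 and 1.74 FPKM in WT and 4.45, 4.12 and 2.44 FPKM in KO muscle. Every KO library lay above every WT library, with KO replicate 8 the closest to WT. The log2 fold change was 0.87 (SE 0.24, adjusted p = 0.0950), and with the correction for GC content it was 0.71 at an unadjusted p of 0.0188 and an adjusted p of 0.376. *Col12a1* (ENSMUSG00000032332, chromosome 9, 79598991 to 79718831, minus strand), abundant in tendon and fascia, was at 2.39, 1.32 and 0.539 FPKM in WT and 5.94, 3.10 and 1.22 FPKM in KO muscle. Replicate 1 was the highest and replicate 8 the lowest of each genotype, KO replicate 8 lay under 2 WT libraries, and the log2 fold change was 1.16 (SE 0.64, adjusted p = 0.284) or 1.23 with the correction.

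*Col16a1* (ENSMUSG00000040690, chromosome 4, 130047840 to 130099283, plus strand) was at 1.99, 0.385 and 0.695 FPKM in WT and 2.74, 2.92 and 1.86 FPKM in KO muscle. The 3 KO libraries were close together, WT replicate 1 lay between them and the other WT libraries were far lower. The log2 fold change of 1.46 (SE 0.50, adjusted p = 0.134) had the largest size among all tested collagens and was 0.79 with the correction. *Col20a1* (ENSMUSG00000016356, chromosome 2, 180986535 to 181018363, plus strand) was at 0.456, 0.506 and 0.438 FPKM in WT and 0.672, 0.820 and 1.25 FPKM in KO muscle. The groups did not overlap and here KO replicate 8 was the highest, and the log2 fold change was 0.80 (SE 0.31, adjusted p = 0.165) or 0.31 with the correction. *Col14a1* (ENSMUSG00000022371, chromosome 15, 55307750 to 55520803, plus strand), a FACIT collagen of dense connective tissue, was at 2.96, 2.48 and 2.25 FPKM in WT and 2.15, 4.34 and 2.25 FPKM in KO muscle. KO replicate 7 alone lay above the WT range, and the log2 fold change was 0.11 (SE 0.28, adjusted p = 0.821), also 0.11 with the correction. The other tested minor collagens (*Col6a6*, *Col7a1*, *Col8a1*, *Col9a1* and *Col23a1*) had log2 fold changes from -0.13 to 0.59, adjusted p from 0.343 to 0.780 and overlapping groups. With the correction the sign turned for *Col7a1*, from 0.59 to -0.074, and for *Col23a1*, from 0.32 to -0.019, and the values were -0.29 for *Col6a6*, 0.45 for *Col8a1* and 0.26 for *Col9a1*.

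Among the 15 collagens under the filter on low values, 2 were fibrillar (*Col2a1* and *Col27a1*), 2 were basement membrane (*Col4a4* and *Col4a6*) and 11 were minor collagens, and their highest value in any library was 0.849 FPKM, for *Col8a2*. *Col2a1*, the main collagen of cartilage, reached 0.0472 FPKM at most. In the other 13 the genotypes overlapped, whereas the groups were apart in *Col13a1* and *Col19a1*, both named after their values were seen. Among the genes that passed the filter, 18.3% lay wholly higher and 16.2% wholly lower in KO. *Col13a1*, a transmembrane collagen of the neuromuscular junction, was at 0.0926, 0.209 and 0.155 FPKM in WT and 0.254, 0.340 and 0.358 FPKM in KO muscle. *Col19a1* was at 0.191, 0.157 and 0.298 FPKM in WT and 0.0955, 0.0578 and 0.0916 FPKM in KO muscle. At this depth such values rest on few fragments per kilobase, and they were not tested in limma. *Col9a3*, *Col6a4*, *Col10a1* and *Col25a1* were listed at 0 in 2, 4, 4 and 1 of the 6 libraries.

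Summed over all 43 collagens, the level was 174.0, 135.3 and 136.6 FPKM in WT and 272.1, 252.0 and 145.6 FPKM in KO muscle. KO replicate 8 lay between the WT libraries and the other KO libraries lay far above them, so the genotypes overlapped. The fibrillar sum was 102.3, 68.7 and 64.5 FPKM in WT and 176.0, 131.7 and 67.2 FPKM in KO muscle. The basement membrane sum was 24.3, 24.4 and 30.4 FPKM in WT and 28.6, 46.8 and 30.0 FPKM in KO muscle. Of the 3 classes, the minor collagens alone had sums that did not overlap, at 47.5, 42.3 and 41.7 FPKM in WT and 67.5, 73.5 and 48.3 FPKM in KO muscle. The sums of the genotypes differed by 1.50-fold for all collagens, 1.59-fold for fibrillar, 1.33-fold for basement membrane and 1.44-fold for minor collagens, as ratios of KO to WT means with no test. All sums are of FPKM as deposited, without the correction for GC content.

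Some of the tested collagens shared one order of the libraries in both genotypes. Replicate 1 was the highest and replicate 8 the lowest in WT and in KO for 7 of the 28 tested collagens, or 25.0%, against 2.497% of all genes tested. They were *Col1a1*, *Col1a2*, *Col11a1*, *Col11a2*, *Col24a1*, *Col4a5* and *Col12a1*, 5 of the 9 tested fibrillar collagens among them. *Col11a1* is a case of it, named after its values were seen, at 0.999, 0.424 and 0.174 FPKM in WT and 1.94, 0.812 and 0.334 FPKM in KO muscle. *Col24a1* followed the same order at 1.16, 0.710 and 0.459 FPKM in WT and 1.52, 1.03 and 0.769 FPKM in KO muscle. The replicate numbers do not pair the mice by any label, and the order counted was picked from these same values. The shared order and its share are thus a description only. The summed level of 6 tendon cell markers took the same order, at 64.3, 45.7 and 32.7 FPKM in WT and 111.5, 84.4 and 55.3 FPKM in KO muscle. By gene, *Thbs4*, *Tnmd* and *Mkx* took this order, *Comp* was highest in replicate 7 of WT, *Egr1* was highest in replicate 8 of KO, and *Scx*, a transcription factor that defines tendon cells, was lowest in replicate 1 of KO and highest in replicate 8 of WT. As deposited, all 6 had log2 fold changes above 0 (51.0% of all genes) with a median of 0.57. With the correction for GC content the median was again 0.57, but *Scx* turned from 0.37 to -0.32. *Thbs4* and *Comp* reached an unadjusted p under 0.05 (15.3% of all genes on the higher side). None of the 6 was at 0 in all libraries, and their part in the collagen values was not tested.

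KO replicate 7 was the highest KO library for 15 of the 28 tested collagens, or 53.6%, against 30.8% of all genes tested. The library was picked from these same values, so the share is a description only. Among the 15 were *Col4a1*, *Col4a2*, *Col15a1* and *Col18a1* of basement membranes and *Col6a1*, *Col6a2* and *Col6a3*. The summed level of 5 adipocyte markers was 34.8, 7.35 and 18.9 FPKM in WT and 44.5, 167.5 and 44.3 FPKM in KO muscle, so that this library stood apart in them as well. It also had the highest sum of the 6 libraries for the markers of fibro-adipogenic progenitors (727.2 FPKM), Schwann cells (85.6 FPKM), endothelium (62.6 FPKM) and macrophages (30.8 FPKM). The sums of the 5 adipocyte markers did not overlap, with each KO library above each WT library. All 5 had log2 fold changes above 0 (51.0% of all genes) with a median of 2.11, or 1.69 with the correction for GC content. Of them, 4 were higher in KO at an unadjusted p under 0.05 (15.3% of all genes), and 0 were called after adjustment. The part of these cells in the collagen values was not tested. Without KO replicate 7 the median log2 fold change of basement membrane collagens was 0.059 in place of 0.28.

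**Figure D4:**
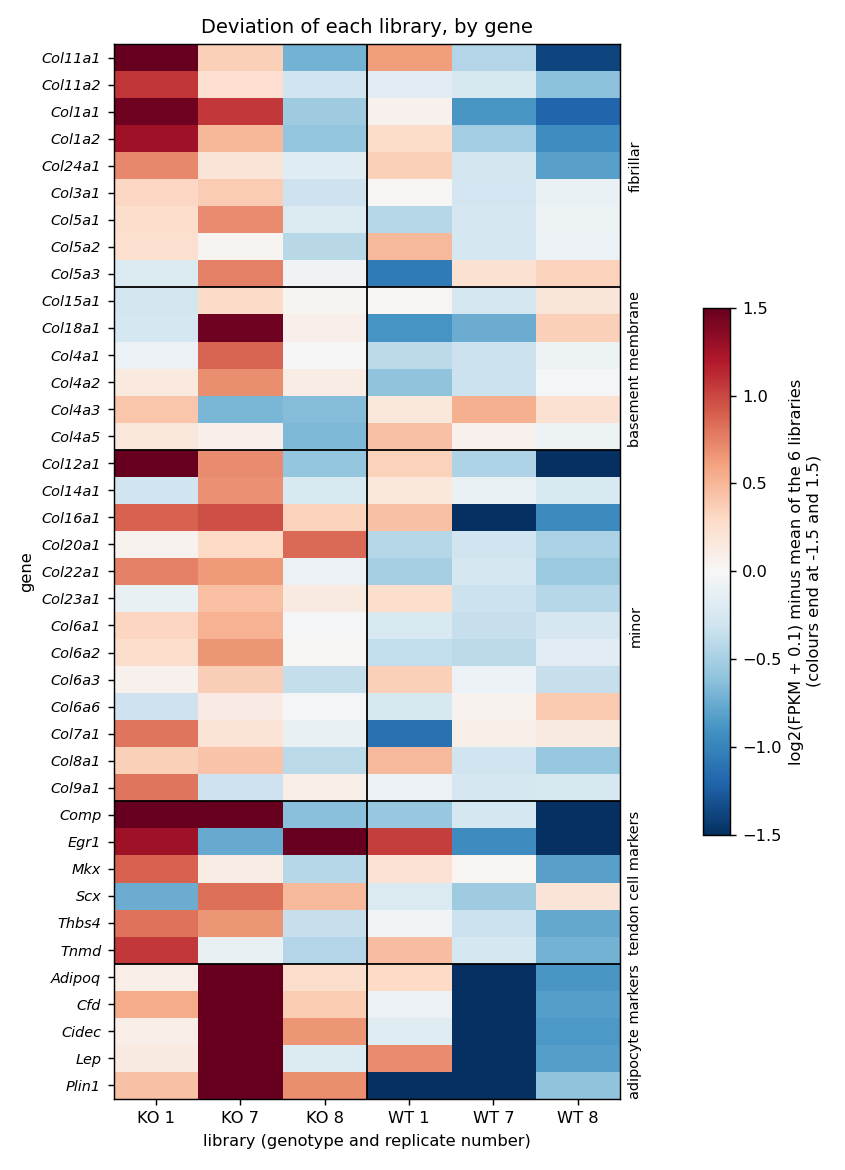
Deviation of log2(FPKM + 0.1) in each library (x axis) from the mean of the 6 libraries (colour, red above and blue below) for the 28 tested collagens by class and for the tendon cell and adipocyte markers (y axis). Replicate 1 is redder than replicate 8 in both genotypes for *Col1a1*, *Col1a2*, *Col11a1* and *Col12a1*, and KO replicate 7 is the reddest column for the adipocyte markers and *Col18a1*.

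Markers of the fibroblast-like cells that make most collagen were near equal in the genotypes at their median. The 8 markers of fibro-adipogenic progenitors had a median log2 fold change of 0.021, with 4 above 0. Their summed level did not overlap, at 396.5 to 484.1 FPKM in WT and 538.1 to 727.2 FPKM in KO libraries. It was largely that of *Gsn*, with means of 292.2 FPKM in WT and 455.6 FPKM in KO muscle. *Gsn* was the 1 marker of the 8 at an unadjusted p under 0.05 (15.3% of all genes on the higher side). Its groups did not overlap (18.3% of all genes), and its log2 fold change was 0.65 (adjusted p = 0.104 in limma) or 0.23 with the correction for GC content. *Pdgfra*, which defines these cells, had WT and KO means of 4.96 and 4.54 FPKM with overlapping groups. Endothelial markers (7 tested) had a median log2 fold change of 0.094, or 0.081 with the correction for GC content. Of them *Kdr* alone reached an unadjusted p under 0.05, lower in KO (10.9% of all genes). Macrophage markers (5 tested) had a median of 0.71, or 0.52 with the correction. In both lists the sums overlapped and no marker was at 0 in all libraries. The 5 markers of pericytes and smooth muscle had a median of 0.57, or 0.10 with the correction for GC content, with overlapping sums. In 4 of them (*Cspg4*, *Myh11*, *Notch3* and *Pdgfrb*) every KO library lay above every WT library (18.3% of all genes). *Rgs5* lay wholly lower in KO (16.2% of all genes), with means of 54.2 FPKM in WT and 42.4 FPKM in KO muscle. *Myh11* and *Notch3* reached an unadjusted p under 0.05 (15.3% of all genes on the higher side). The 4 tested markers of Schwann cells had a median of 0.089, or 0.01 with the correction, again with overlapping sums. The 9 markers of muscle fibers had a median of 0.71, or 0.39 with the correction, beside overlapping sums. Of these, 4 (*Acta1*, *Ckm*, *Des* and *Myh2*) were higher in KO at an unadjusted p under 0.05 (15.3% of all genes). The same 4 had no overlap between the genotypes, with KO above WT (18.3% of all genes).

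FPKM are per length, and the chains of one trimer were set side by side in a library. The ratios are of FPKM as deposited, not corrected for GC content unless the correction is named. The 5 ratios were compared by exact two-sided permutation tests, for which 0.1 is the smallest p with 3 against 3, with adjustment over the 5 ratios. *Col1a1* to *Col1a2* was 0.192 ± 0.00938 (SD, n = 3) in WT and 0.286 ± 0.0536 (SD, n = 3) in KO muscle, each KO library above each WT library (exact permutation p = 0.1, adjusted p = 0.167). In protein the α1 chain is the more numerous of the pair, whereas its transcript had the lower FPKM in all 6 libraries. *Col5a1* to *Col5a2* was 0.331 ± 0.109 (SD, n = 3) in WT and 0.493 ± 0.122 (SD, n = 3) in KO muscle, again without overlap (exact permutation p = 0.1, adjusted p = 0.167). In both pairs the first chain has the higher GC content, 57.8% against 46.8% and 57.7% against 46.8%, and with the correction the log2 differences of 0.56 and 0.61 became -0.083 and -0.032 with overlapping groups.

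*Col6a3* to *Col6a1* was 0.708 ± 0.169 (SD, n = 3) in WT and 0.493 ± 0.0340 (SD, n = 3) in KO muscle, each KO library below each WT library (exact permutation p = 0.1, adjusted p = 0.167). The log2 difference was -0.50, and -0.30 with overlapping groups after the correction. In the other 2 pairs the genotypes overlapped. *Col6a1* to *Col6a2* was 1.38 ± 0.108 (SD, n = 3) in WT and 1.30 ± 0.0882 (SD, n = 3) in KO muscle (exact permutation p = 0.4). *Col4a1* to *Col4a2* was 1.26 ± 0.125 (SD, n = 3) in WT and 1.17 ± 0.176 (SD, n = 3) in KO muscle (exact permutation p = 0.4).

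**Figure D5:**
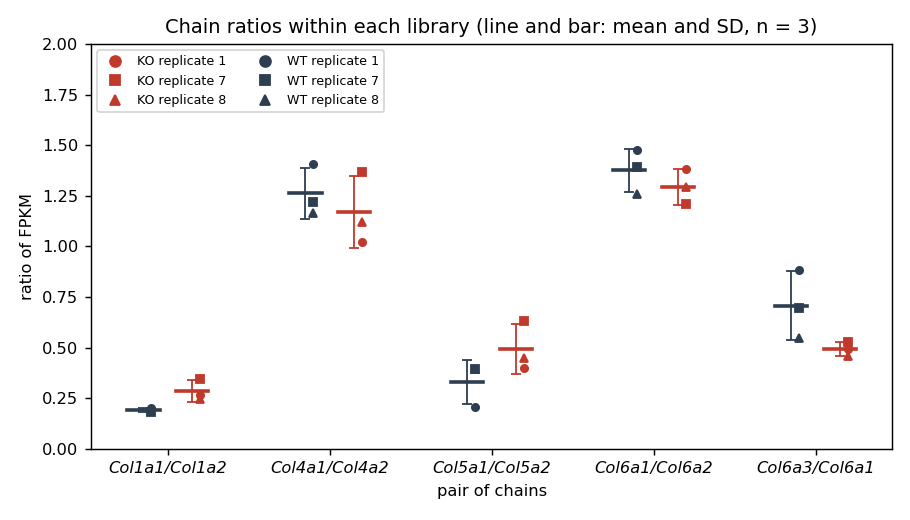
Ratio of the FPKM of 2 collagen chains (y axis) in each library for 5 pairs of chains (x axis), with lines at the mean and bars of 1 SD over the 3 libraries of a genotype. The genotypes do not overlap for *Col1a1*/*Col1a2*, *Col5a1*/*Col5a2* and *Col6a3*/*Col6a1*, and they overlap for the other pairs.

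The enzymes and partners of collagen were counted in 7 lists, in which limma called 0 genes after adjustment over all genes. The counts in these lists stand beside 51.0% of all genes with a log2 fold change above 0, and 15.3% higher and 10.9% lower at an unadjusted p under 0.05. Of 17 tested genes of procollagen hydroxylation and folding, 13 had log2 fold changes above 0 and 4 reached an unadjusted p under 0.05, all higher, with a median of 0.20 for the list or 0.036 with the correction for GC content. *Plod3*, which hydroxylates lysines of collagen and adds sugars to them, had the lowest p of the list, at 4.05, 4.32 and 5.01 FPKM in WT and 6.85, 6.94 and 8.57 FPKM in KO muscle. Every KO library lay above every WT library, and the log2 fold change was 0.73 (SE 0.14, adjusted p = 0.0700) or 0.26 with the correction for GC content. All 8 tested genes of procollagen processing and crosslinking were above 0, and 2 reached an unadjusted p under 0.05, with a median of 0.38 or 0.20 with the correction. The lowest p was that of *Bmp1*, which removes the C-propeptide of fibrillar procollagens, and the log2 fold change was 0.68 (SE 0.18, adjusted p = 0.0888) or 0.27 with the correction.

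Of 9 small leucine-rich proteoglycans, which coat collagen fibrils, 5 were above 0 and 2 reached an unadjusted p under 0.05, *Prelp* with the lowest at a log2 fold change of 0.64 (adjusted p = 0.168) or 0.37 with the correction. Of 6 collagen receptors 3 were above 0, and the uptake receptor *Mrc2* alone reached an unadjusted p under 0.05 at a log2 fold change of 0.75 (adjusted p = 0.0785) or 0.21 with the correction. Of 7 genes of collagen degradation 6 were above 0 and 2 reached an unadjusted p under 0.05, the gelatinase *Mmp2* with the lowest at 0.43 (adjusted p = 0.111) or 0.17 with the correction. Of 12 genes of TGF-β signaling, the pathway best known for driving collagen synthesis, 8 were above 0 with a median of 0.053. The 1 gene of that list at an unadjusted p under 0.05 was the receptor *Tgfbr1*, which was lower in KO at a log2 fold change of -0.49 (adjusted p = 0.153) or -0.22 with the correction. Of 9 other matrix and myofibroblast genes 8 were above 0 and 4 reached an unadjusted p under 0.05. The smooth muscle gene *Tagln* had the lowest at 0.72 (adjusted p = 0.0834) or 0.64 with the correction. The median of this list was 0.67, or 0.64 with the correction, and that of the proteoglycans was 0.24, or 0.37 with it. For the receptors it was 0.22, or 0.048 with the correction, and for degradation 0.27, or 0.17 with it. For TGF-β signaling the corrected median was -0.002.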

How the data were processed

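Total RNA of GAS muscles was made into libraries with a stranded mRNA kit. Reads were aligned with TopHat on GRCm38, and the authors deposited the FPKM of each gene from Cufflinks, per the labels and the submitters' processing notes. Tool versions, the annotation and the use of strand in counting are not given in the sources used here. Counts were not used here, so depth was estimated from low FPKM values of genes with 1 transcript of 1500 to 6000 bases, of which 87.9% to 91.8% fell within 0.15 of a whole fragment. Intervals were not computed from these estimates.

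The test was limma 3.58.1 (R 4.3.3) on log2(FPKM + 0.1), with a variance trend and Benjamini-Hochberg adjustment, for the 12334 genes that averaged 0.5 FPKM or more. The scale understates the change of low genes. GC content is that of the GENCODE vM21 transcripts (GRCm38), and each library's loess trend (span 0.3) on it was removed for the corrected values (11985 genes). The script was checked on simulated data. Those data held changes larger than that of any tested collagen, so the check does not measure the power for collagens. The collagens, gene lists and marker lists were chosen with earlier results of these data known. Genes named with library values were 15 collagens fixed by name, others with an unadjusted p under 0.05 or no overlap, and the largest change of each class. Of the other lists, the gene of lowest p was named. Libraries sharing a number (1, 7, 8) were not treated as paired, since the deviations of libraries with the same number correlated at -0.025, -0.080 and 0.034. Promoters came from RefSeq on GRCm38, with entries for 35 of the 43 collagens. Alternatives covered the pseudocount, filter, scaling, array weights, variance trend, GC content, length, a replicate block and leaving out each library.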

Additional observations from a re-analysis of the deposited data

How the results depend on the processing

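Of 18 alternatives, array weights alone called any collagen (5, all higher in KO, beside 1863 genes higher and 1284 lower of all genes, against 31 and 9), and the cause was not tested. The count of all genes higher in KO was 7 with a pseudocount of 1, 9 without a filter on low values, 11 with quantile normalization, 12 without a variance trend, 11 with the length correction, 6 with the correction for GC content, 6 with the replicate block and 5 with the replicate block and the correction for GC content, and 6 to 103 on leaving out 1 library (103 without WT replicate 8). Lower genes numbered 4 with a pseudocount of 1 and 6 to 23 on leaving out 1 library (23 without WT replicate 8). Collagens higher at an unadjusted p under 0.05 numbered 1 with the correction for GC content, 5 with the replicate block and the correction, and 3 to 11 on leaving out 1 library. Lower collagens numbered 1 without the filter, 1 with array weights and 0 to 1 on leaving out 1 library (1 without KO replicate 1). With the replicate block alone, 8 collagens were higher at an unadjusted p under 0.05, against 7 without it, and 0 were called after adjustment.

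The correction for GC content, with or without the replicate block, gave medians of 0.096 for all collagens, -0.14 for basement membrane and 0.18 for minor collagens, and reversed the ratios of *Col1a1* to *Col1a2* (-0.083), *Col4a1* to *Col4a2* (0.077) and *Col5a1* to *Col5a2* (-0.032) on the log2 scale. It also reversed *Col5a2* (0.041), *Col4a2* (-0.003), *Col15a1* (-0.28) and *Col6a3* (-0.22), and, of the collagens given by fold change alone, *Col11a2* (-0.056), *Col5a3* (-0.32), *Col7a1* (-0.074) and *Col23a1* (-0.019). Without the filter the medians were -0.011 for basement membrane and 0.19 for minor collagens, where more low genes were included, and with a mean of at least 1 FPKM the basement membrane median was 0.58, where fewer genes were tested. Array weights reversed *Col5a2* (0.010), *Col6a3* (-0.058) and *Col14a1* (-0.005), quantile normalization (-0.002) and the length correction (-0.038) reversed *Col15a1*. Leaving out 1 library gave -0.24 to 0.14 for *Col5a2*, -0.12 to 0.25 for *Col6a3*, -0.20 to 0.29 for *Col14a1* and -0.10 to 0.18 for *Col15a1*. Without KO replicate 7 the log2 fold changes of *Col15a1*, *Col6a3* and *Col14a1* were -0.10, -0.12 and -0.20, without KO replicate 8 or WT replicate 1 that of *Col5a2* was 0.10 or 0.14, without WT replicate 7 that of *Col15a1* was -0.089 and without WT replicate 8 that of *Col6a3* was -0.11. Of the 17 collagens named by rule, the other 12 kept their direction under each alternative, and the depth of 13960000 to 20140000 fragments limits the collagens under the filter.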

Other observations

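*Fmod*, which encodes the fibril-coating proteoglycan fibromodulin, was named after its values were seen and took the same order of libraries as *Col1a1* and *Col1a2*. It was at 39.7, 31.8 and 10.4 FPKM in WT and 82.9, 67.4 and 27.3 FPKM in KO muscle. Replicate 1 was the highest and replicate 8 the lowest of each genotype and the groups overlapped. The log2 fold change was 1.18 (SE 0.57, adjusted p = 0.233 in limma) or 0.90 with the correction for GC content. *Comp*, a matrix protein of tendon that binds collagen fibrils, was at 2.20, 2.75 and 1.005 FPKM in WT and 10.2, 9.67 and 2.11 FPKM in KO muscle. KO replicate 8 lay under 2 WT libraries, and the log2 fold change was 1.65 (adjusted p = 0.158 in limma) or 1.03 with the correction. *Tnmd*, a marker of tendon cells, was at 18.1, 10.9 and 7.95 FPKM in WT and 27.4, 12.1 and 9.64 FPKM in KO muscle, and its log2 fold change was 0.34 (adjusted p = 0.636 in limma) or 0.62 with the correction.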
